A study of Mus musculus with 16 samples.

Results

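Chil3, Chil4, Arg1, Retnla and Alox15 are the textbook mouse genes of alternative macrophage activation. These 5 genes, of 18635 genes listed in the deposited tables, were followed library by library in tumours with and without 53BP1. They were chosen by name after their level in KPC knockout tumours had been seen to differ from wild type. Their KPC differences are therefore a description, and nothing is read from how the fit called them there, while their ID8 values took no part in the choice.

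Alternative activation is the state that macrophages enter when the type 2 cytokines IL-4 or IL-13 bind the IL-4 receptor alpha chain and the Janus kinases phosphorylate the transcription factor STAT6. STAT6 then switches on a set of effector genes that serves in worm infection, allergic airway disease, wound repair and, in tumours, in suppressive macrophages. Chil3 and Chil4 encode Ym1 and Ym2, secreted chitinase-like lectins that have lost the catalytic activity of true chitinases. Arg1 encodes arginase 1, which splits arginine into ornithine and urea. Retnla encodes FIZZ1, a small secreted protein of the resistin family, and Alox15 encodes 12/15-lipoxygenase, an enzyme that oxidises arachidonic acid. Other cells make some of these products too, among them eosinophils (Alox15) and airway and stomach epithelium (Chil4, Retnla).

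The study implanted 2 mouse tumour cell lines and their Trp53bp1 knockout derivatives into syngeneic mice and sequenced RNA from 16 samples labelled as tumours. The extraction text speaks of cells, and the ID8 libraries held little macrophage RNA (below). Trp53bp1 encodes 53BP1, a DNA double-strand break repair protein. ID8 is an ovarian surface epithelial line, with 3 wild-type and 3 Trp53bp1 KO tumours, and KPC is a pancreatic cancer line, with 5 WT and 5 KO tumours; the labels list no treatment for any group. The labels number these samples as separate biological replicates but give 1 knockout derivative per line with no clone number. A p-value therefore measures the spread among the samples and cannot tell the knockout from the clone. Mouse strain, age, implantation site and the deleted part of Trp53bp1 were not stated in the labels.

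Library totals ran from 17902867 to 19727536 counts. Trp53bp1 RNA, which checks the labels, was present in all libraries and lower in the knockouts. It went from 51.5 ± 3.59 to 34.1 ± 3.99 CPM (counts per 1000000 counts of the library after TMM scaling, mean ± SD, n = 5) in KPC, a log2 fold change of -0.59 (SE 0.0898, edgeR adjusted p = 0.00400). In ID8 it went from 46.1 ± 2.89 to 18.4 ± 0.502 CPM (n = 3), a log2 fold change of -1.33 (SE 0.0667, edgeR adjusted p = 1.15e-10). Skeletal muscle RNA differed widely among the KPC libraries: a sum of 10 muscle genes covered 600 to 32513 CPM in wild type and 19.4 to 6401 CPM in knockout tumours, and the edgeR adjusted p-values of the 10 were 0.186 or more.

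Chil3 and Chil4 lie next to each other on mouse chromosome 3 and their transcripts are close copies, which is why their sequences are shown first. The GENCODE M21 transcripts (1539 bases each) were identical at 94.3% of aligned positions, with 86 mismatches. The longest identical run was 136 bases. Of all 50-base words in Chil3, 18.5% also occur in Chil4, and of all 100-base words, 3.75%. A 60-base coding window, bases 543 to 602 of each transcript from its 5′ end, holds 10 of the differences, printed in capitals.
Chil3: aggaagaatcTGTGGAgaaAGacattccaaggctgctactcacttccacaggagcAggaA
Chil4: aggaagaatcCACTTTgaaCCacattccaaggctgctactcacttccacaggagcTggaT

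The upstream regions are shown because STAT6 is known to bind paired TTC and GAA motifs spaced by 3 or 4 bases. RefSeq promoters (build GRCm38.p6) were at hand for 3 of the 5 genes, Chil3, Chil4 and Retnla, and for the Retnla neighbour Retnlg. The 250 bases before each gene's start were searched for TTCNNNGAA and TTCNNNNGAA. Both patterns read the same on either strand, so 1 search covers both. Matches are in capitals.
Chil3, chr3:106167565-106167814, minus strand: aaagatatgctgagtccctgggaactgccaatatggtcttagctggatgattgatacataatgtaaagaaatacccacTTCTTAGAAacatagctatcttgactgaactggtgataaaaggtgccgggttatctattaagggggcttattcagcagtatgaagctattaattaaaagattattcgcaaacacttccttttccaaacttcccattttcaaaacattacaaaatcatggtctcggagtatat
Chil4, chr3:106219480-106219729, minus strand: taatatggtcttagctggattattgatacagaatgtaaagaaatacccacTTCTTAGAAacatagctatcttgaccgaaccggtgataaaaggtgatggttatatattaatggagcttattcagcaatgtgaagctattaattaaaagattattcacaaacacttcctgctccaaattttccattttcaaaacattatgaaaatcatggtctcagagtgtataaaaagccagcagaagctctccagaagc
Retnla, chr16:48842359-48842608, plus strand: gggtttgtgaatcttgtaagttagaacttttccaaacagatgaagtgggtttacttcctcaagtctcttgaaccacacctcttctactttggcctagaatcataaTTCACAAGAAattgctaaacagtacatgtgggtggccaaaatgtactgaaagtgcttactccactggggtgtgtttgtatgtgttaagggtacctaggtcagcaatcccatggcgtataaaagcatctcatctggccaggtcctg
Retnlg, chr16:48872358-48872607, plus strand: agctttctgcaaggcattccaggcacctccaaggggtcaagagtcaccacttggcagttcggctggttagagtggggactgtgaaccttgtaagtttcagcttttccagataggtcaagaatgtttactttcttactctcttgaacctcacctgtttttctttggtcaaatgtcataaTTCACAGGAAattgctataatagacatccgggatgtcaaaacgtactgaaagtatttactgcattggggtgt

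Each of the 4 regions held 1 match, at bases -172 to -164 (Chil3), -200 to -192 (Chil4), -145 to -136 (Retnla) and -72 to -63 (Retnlg) from the gene start. Among 32851 promoters of the same table, 7.02% held TTCNNNGAA, 5.85% held TTCNNNNGAA and 12.4% held at least one of them in the same window. The pairs are related by descent and do not count as separate cases: the Chil3 and Chil4 regions were identical at 201 of 222 aligned bases (90.5%), and the Retnla and Retnlg regions at 135 of 177 (76.3%). A match describes letters only and does not show that a factor binds there.

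Among the secreted lectins, Chil3 was low but present in every wild-type KPC tumour. Replicates 1 to 5 held 4.55, 2.34, 2.22, 4.44 and 2.08 CPM in wild type and 41.1, 60.4, 76.7, 92.8 and 31.9 CPM in knockout. The groups did not overlap, and the lowest knockout library stood 7.02-fold above the highest wild-type one. The means were 3.13 ± 1.25 and 60.6 ± 24.97 CPM, a log2 fold change of 4.27 (SE 0.37). In bulk tumours, more cells of a type and more RNA per cell cannot be told apart, and this holds for each gene below.

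Chil4 differed most. Wild-type replicates 1 to 5 held 0, 0.381, 0.774, 8.83 and 0.656 CPM, and knockout replicates held 559, 2174, 269, 2635 and 306 CPM. Wild-type replicate 1 had no Chil4 count, where 3 counts would have been 0.155 CPM, and wild-type replicate 4 stood far above the other wild-type tumours. The knockout tumours fell into a high pair (replicates 2 and 4) and 3 lower ones, yet the lowest of them was 30.4-fold above wild-type replicate 4. The means were 2.13 ± 3.76 and 1188.5 ± 1127.3 CPM, a ratio of 559. The fitted log2 fold change of 9.11 (SE 1.49) became 11.34 without wild-type replicate 4.

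Arg1 had the smallest relative difference of the 5 genes. Wild-type replicates 1 to 5 held 161, 72.7, 87.5, 146 and 84.2 CPM, and knockout replicates held 428, 252, 307, 422 and 283 CPM. No library overlapped, but the gap was narrow: the lowest knockout tumour was 1.57-fold above the highest wild-type tumour. The means were 110 ± 40.0 and 338 ± 81.2 CPM, a log2 fold change of 1.62 (SE 0.254).

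Retnla had the widest spread among wild-type tumours relative to its level, apart from Chil4. Wild-type replicates 1 to 5 held 2.64, 20.2, 11.9, 40.6 and 5.30 CPM, and knockout replicates held 287, 105, 84.7, 225 and 60.3 CPM. The lowest knockout tumour was 1.49-fold above the highest wild-type tumour, the narrowest gap of the 5 genes. The means were 16.1 ± 15.3 and 152 ± 98.3 CPM, a log2 fold change of 3.24 (SE 0.763).

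Alox15 was even among wild-type tumours except for replicate 4. Wild-type replicates 1 to 5 held 3.88, 3.65, 3.20, 7.02 and 3.55 CPM, and knockout replicates held 49.5, 33.2, 31.8, 83.9 and 23.6 CPM. The groups did not overlap, with a 3.37-fold gap between the lowest knockout and the highest wild-type tumour. The means were 4.26 ± 1.56 and 44.4 ± 24.0 CPM, a log2 fold change of 3.38 (SE 0.379).

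**Figure D1:**
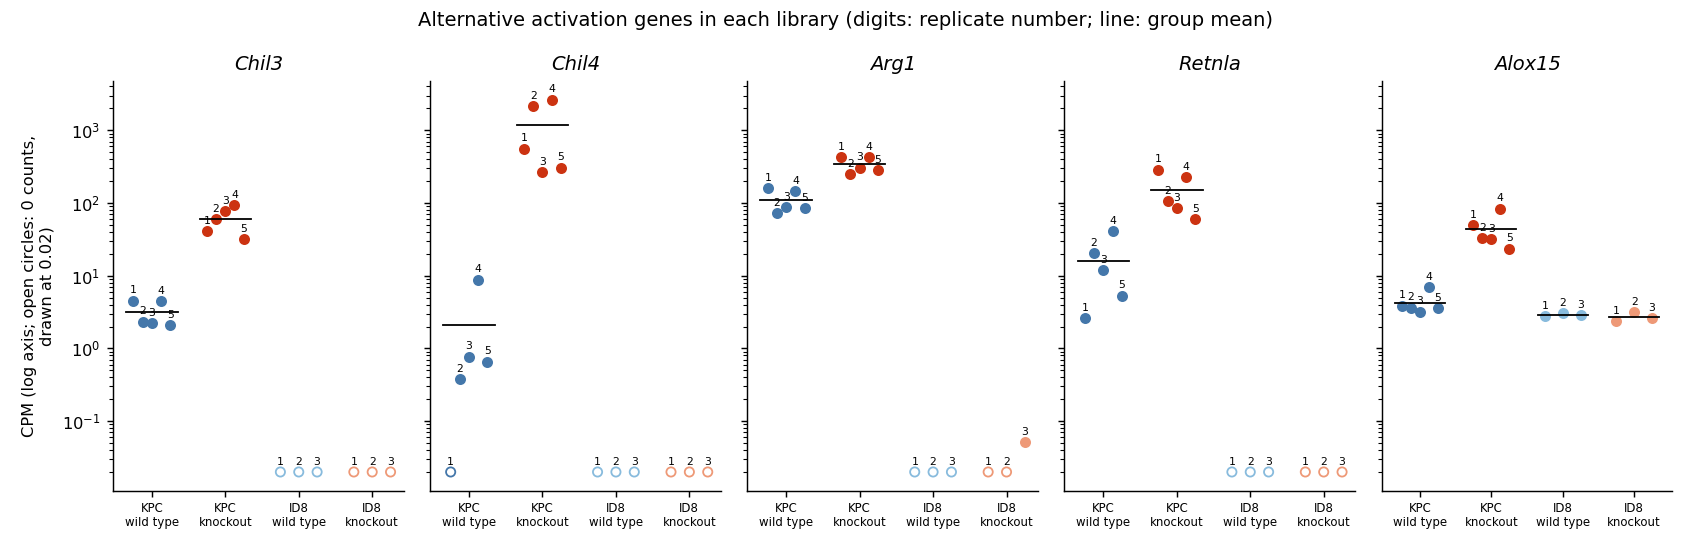
CPM of each gene (log axis) in each KPC and ID8 library, by genotype, with replicate numbers above the points, black lines at group means and open circles for libraries with 0 counts. The 5 KPC knockout points lie above the 5 wild-type points in every panel, Chil4 spans 0 to 2635 CPM, and in ID8 Alox15 alone has counts in every library.

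All 5 genes passed the count filter in KPC and all 5 were higher there at an edgeR adjusted p under 0.05, against 6.67% of the 14283 genes tested that were called higher and 13.7% called in either direction. All 5 also showed no overlap, against 5.34% of genes with every knockout library above every wild-type one. The choice of genes used this contrast, so nothing is read from either count. Retnla missed the threshold with the muscle genes' mean log2 CPM (the muscle score) as a covariate, and without wild-type replicate 2, 3 or 5 or knockout replicate 1 or 4. Ranked by log2 fold change among the 14283 genes, Chil4 stood at place 1, Chil3 at 7, Alox15 at 18, Retnla at 23 and Arg1 at 164.

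Per kilobase of transcript, the order of the genes differed between genotypes. In wild-type KPC tumours Arg1 had the highest mean, 74.6 CPM per kb, followed by Retnla with 26.9, Chil3 with 2.03, Alox15 with 1.77 and Chil4 with 1.38 CPM per kb. In knockout tumours Chil4 had the highest mean, 772 CPM per kb, followed by Retnla with 255, Arg1 with 229, Chil3 with 39.4 and Alox15 with 18.4 CPM per kb. In wild type, Arg1 (49.2 to 109 CPM per kb) overlapped Retnla (4.40 to 67.8). Retnla also overlapped Chil4 (0 to 5.74), and the last 3 levels overlapped each other. In knockout tumours Chil4 (174.5 to 1712 CPM per kb), Retnla (101 to 479) and Arg1 (171 to 289) overlapped each other, and Chil3 (20.7 to 60.3) overlapped Alox15 (9.82 to 34.8).

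The balance between the Ym genes differed by genotype. Chil4 made up 0, 14, 25.9, 66.5 and 24% of the summed Chil3 and Chil4 counts in wild-type replicates 1 to 5, and 93.2, 97.3, 77.8, 96.6 and 90.6% in knockout replicates. These shares did not overlap. The nearest pair was wild-type replicate 4 (95% Wilson interval 60.6 to 72.0%) and knockout replicate 3 (76.8 to 78.8%). Those intervals cover only the counting error of rounded counts, not the split of shared reads or the spread among tumours. Nothing about genotype is read from them. Within the knockout tumours the ratio of Chil4 to Chil3 ran from 3.50 in replicate 3 to 36.0 in replicate 2, so the genes did not keep a fixed ratio. Because RSEM divides reads that fit both copies, the split between them is uncertain: the deposited values of both genes were fractional in the 5 knockout libraries and whole in the 5 wild-type ones. Their sum, which does not depend on that split, had a log2 fold change of 7.89 (SE 0.984).

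**Figure D2:**
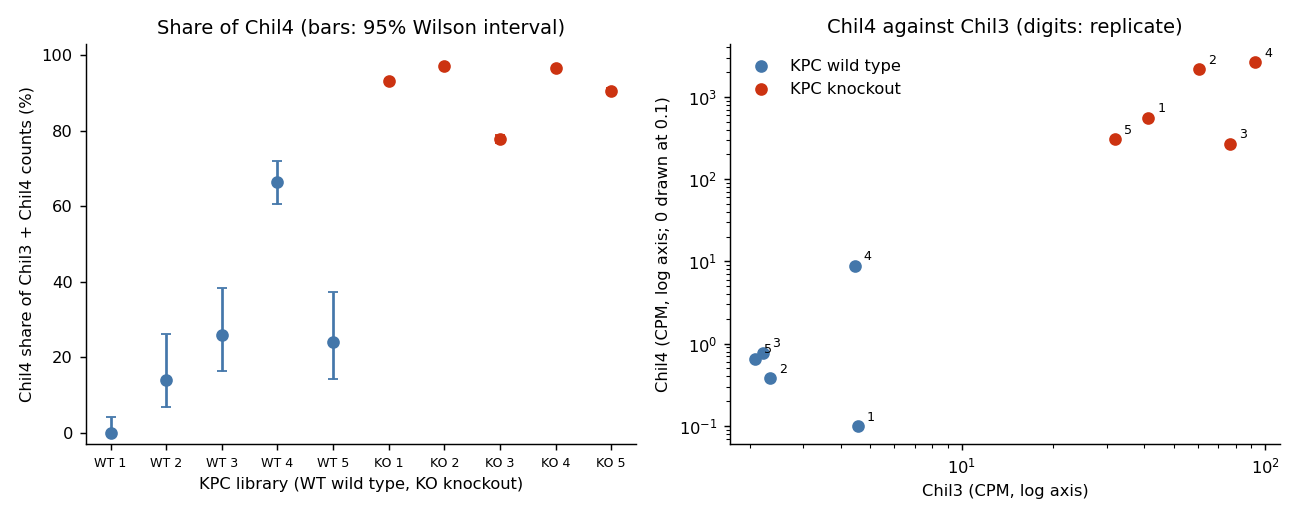
Left, Chil4 share of the summed Chil3 and Chil4 counts (%) in each KPC library, with 95% Wilson intervals. Right, Chil4 against Chil3 (CPM, log axes, 0 drawn at 0.1), with replicate numbers. Shares are 0 to 66.5% in wild type and 77.8 to 97.3% in knockout, and knockout replicate 3 has high Chil3 (76.7 CPM) with the lowest knockout Chil4 (269 CPM).

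In ID8 the programme was close to absent in both genotypes. Chil3, Chil4 and Retnla had 0 counts in all 6 libraries, where 3 counts would be 0.153 to 0.158 CPM, and Arg1 had 1 count in knockout replicate 3 and none elsewhere. Alox15 alone passed the filter, at 2.77, 3.06 and 2.89 CPM in wild type and 2.40, 3.18 and 2.62 CPM in knockout. The groups overlapped, and the knockout mean was 94.1% of wild type (2.90 ± 0.146 against 2.73 ± 0.401 CPM, n = 3). By edgeR the difference was -0.09 on the log2 scale (SE 0.164), with an adjusted p of 0.686 and an unadjusted p of 0.601. An exact two-sided permutation test gave p = 0.5, where 3 against 3 cannot go below 0.1. So 0 of 1 tested gene was called in ID8, by edgeR and by DESeq2, while 50.8% of 11933 genes were.

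The ID8 libraries held little macrophage RNA. Of 20 macrophage markers, 13 had 0 counts in the ID8 wild-type libraries and 13 in the knockouts, among them Adgre1 (the surface marker F4/80), C1qa (complement) and Ctss (cathepsin S). The summed level of the 20 was 18.7 to 21.1 CPM in wild type and 11.1 to 12.3 CPM in knockout, most of it from Cd68 and Mertk. The same sum in KPC was 2514 to 5314 CPM in wild type and 4118 to 6806 CPM in knockout. The ID8 samples are labelled as tumours, while the extraction text speaks of cells.

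Among KPC tumours the macrophage markers themselves leaned higher in the knockouts. Of 20 tested, 19 had a positive log2 fold change, with a median of 0.69 beside -0.01 over all genes. Ctss rose (log2 fold change 1.14, SE 0.251, edgeR adjusted p = 0.0187) and Cx3cr1, a chemokine receptor of monocyte-derived cells, fell (-0.89, SE 0.122, adjusted p = 0.00264). Adgre1 had 62.0, 56.9, 68.4, 130 and 48.1 CPM in wild type and 137, 71.5, 80.9, 138 and 89.4 CPM in knockout, with overlap (log2 fold change 0.50, SE 0.289, adjusted p = 0.252). Csf1r, the receptor for the growth factor CSF1, had 0.69 (SE 0.249, adjusted p = 0.0884), C1qa 0.71 (SE 0.226, adjusted p = 0.0598) and Mrc1, the mannose receptor, 0.72 (SE 0.3, adjusted p = 0.124). None of these 4 passed in edgeR. DESeq2 called Csf1r (adjusted p = 0.0256), C1qa (adjusted p = 0.0103) and Mrc1 (adjusted p = 0.0472), and without wild-type replicate 4 edgeR called all 4, with log2 fold changes of 0.81 for Adgre1, 0.93 for Csf1r, 0.89 for C1qa and 0.97 for Mrc1. The fit with the replicate number as a block and the joint fit of all 4 groups called Csf1r and C1qa, and C1qa was called without knockout replicate 2 too. Without the 4 libraries with Acta1 above 1000 CPM edgeR also called all 4. The log2 fold changes there were 1.02 for Adgre1, 1.10 for Csf1r, 1.12 for C1qa and 1.13 for Mrc1.

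Set against Adgre1 in the same library, each of the 5 genes was higher in the knockouts with no overlap. Arg1 was 1.12 to 2.59 times Adgre1 in wild type and 3.06 to 3.80 times in knockout (1.61 ± 0.600 against 3.34 ± 0.313), and the ratio in the knockouts varied little. Retnla was 0.0426 to 0.355 times Adgre1 in wild type and 0.675 to 2.10 times in knockout. Chil3 had mean ratios of 0.0449 and 0.625, Alox15 of 0.0603 and 0.419, and Chil4 of 0.01996 and 12.1. Against the summed macrophage markers, Arg1 was 3.20 ± 0.998% in wild type and 5.99 ± 0.363% in knockout. These ratios reuse the contrast that chose the genes and are a description.

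**Figure D3:**
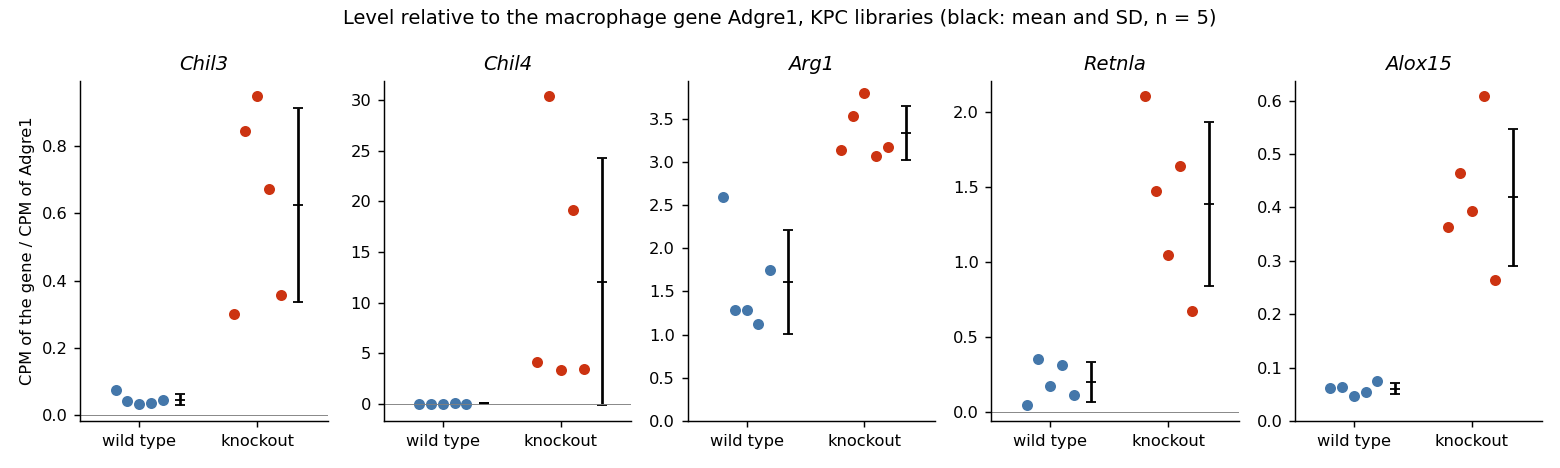
CPM of each gene divided by CPM of Adgre1 in the same KPC library (linear axes, own scale per panel), with the mean and SD (n = 5) in black. In each panel the 5 knockout points lie above the 5 wild-type points; Arg1 runs from 1.12 to 2.59 in wild type and 3.06 to 3.80 in knockout.

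The order of the knockout tumours differed in part from gene to gene. Replicate 4 was the highest knockout for Chil3, Chil4 and Alox15, while replicate 1 was highest for Arg1 and Retnla. Replicate 5 was the lowest knockout for Chil3, Retnla and Alox15. As a description over the 10 KPC libraries, Pearson's r of log2 CPM after removing the genotype means was 0.607 to 0.734 for 6 of the 10 pairs of genes. They were Chil4 and Retnla (0.734), Alox15 with each of the other 4 (Arg1 0.658, Retnla 0.655, Chil3 0.630, Chil4 0.629), and Chil3 and Arg1 (0.607). For the other 4 pairs it was 0.0755 for Chil4 and Arg1, 0.112 for Chil3 and Retnla, 0.139 for Arg1 and Retnla, and 0.263 for Chil3 and Chil4. These points share libraries, depth and tumour makeup.

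The genes most like each member over the 10 KPC libraries, by Pearson's r of log2 CPM, differed from member to member, and part of each r is the genotype difference that chose the member. They are also the top of a search over many genes, and such picking raises each r, those within genotype included. For Chil4 they were Car4, a carbonic anhydrase (r = 0.989, 0.928 within genotype), Aldh3b1, an aldehyde dehydrogenase (0.984, 0.868 within), and Dgat1, a triglyceride-forming enzyme (0.976, 0.803 within). Alox15 was most like Rnase2a, an eosinophil-associated ribonuclease (0.985, 0.831 within), Prg2, the eosinophil major basic protein (0.977, 0.871 within), and Cebpe, a granulocyte transcription factor (0.974, 0.836 within). With a fixed set of marker genes, the within-genotype r of Alox15 was 0.790 (Adgre1), 0.785 (Csf1r), 0.811 (Siglecf) and -0.349 (Epcam). Which cells made the Alox15 RNA was not tested. Retnla was most like Septin1, Klrg1, a lymphocyte receptor, and Gpr55 (0.978 to 0.982, 0.922 to 0.940 within). Arg1 was most like Gmppb, Retnlg and Yipf1 (0.970 to 0.978, 0.838 to 0.910 within). Chil3 was most like Aif1l, Alox15 and Pdlim1 (0.970 to 0.972), where the within-genotype r ranged from 0.412 to 0.792.

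Other listed genes of the effector programme were mostly higher in KPC knockout tumours. This list, like the other lists here, was fixed with earlier results of these data known. Its counts describe these libraries and are not independent support. Of 40 other alternative activation genes, 39 were listed and tested, 22 rose and none fell by edgeR or DESeq2 (1 was lower at an unadjusted p under 0.05), 56.4% against the 6.67% of all genes called higher (7.01% were called lower). Their median log2 fold change was 1.08 beside -0.01 over all genes, 38 of the 39 were positive, and in 17 every knockout library was above every wild-type one. Removing 1 library moved the count of called genes to 9 (without wild-type replicate 5), 10 (without knockout replicate 4), 11 (without wild-type replicate 1 or 2), 12 (without knockout replicate 1) or 14 (without wild-type replicate 3), with 34 or more of 39 positive. With the muscle score as a covariate, 4 were called and 36 of 39 stayed positive, with a median of 1.05.

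Chemokines and secreted products led the list. Rnase2a had at most 0.310 CPM in wild type, where replicate 1 had 0, and 9.78, 6.82, 8.67, 16.9 and 2.62 CPM in knockout replicates 1 to 5 (log2 fold change 6.19, SE 0.677, edgeR adjusted p = 0.000807). Ccl24, eotaxin 2, had 5.22, 4.85, 9.13, 11.05 and 2.95 CPM in wild type and 148, 63.5, 35.8, 94.4 and 30.3 CPM in knockout (3.48, SE 0.53, adjusted p = 0.00516). Neither overlapped between genotypes. Il1rn, the interleukin 1 receptor antagonist, rose less but evenly, from 139 ± 14.4 to 208 ± 25.1 CPM (0.58, SE 0.0971, adjusted p = 0.00629). The other risers included the CCR4 ligands Ccl17 (2.42) and Ccl22 (1.89), the lectins Mgl2 (1.87), Cd209a (1.56) and Cd209d (1.47), the scavenger receptor Cd163 (1.16), the checkpoint ligand Pdcd1lg2 (2.17), Mmp12 (1.85), a macrophage elastase, and the transcription factors Irf4 (1.76), Batf3 (1.66) and Egr2 (0.84). These 11 lie outside the rule for named genes and were picked after their values were seen. Which cells made the RNAs of this list, macrophages, dendritic cells, eosinophils or others, was not tested.

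Some classic genes of the list did not pass. Mrc1 and Clec10a (1.29, SE 0.42, adjusted p = 0.0666), both lectin receptors, were positive, as was Trem2 (0.59, SE 0.232, adjusted p = 0.109). Pparg, a lipid-sensing nuclear receptor, was the 1 gene with a negative value (-0.42, SE 0.18, adjusted p = 0.135). Klf4, Kdm6b and Tgm2, which tumour and stromal cells also express, had values of 0.01, 0.01 and 0.0019. Clec10a, Trem2 and Pparg were picked after their values were seen.

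**Figure D4:**
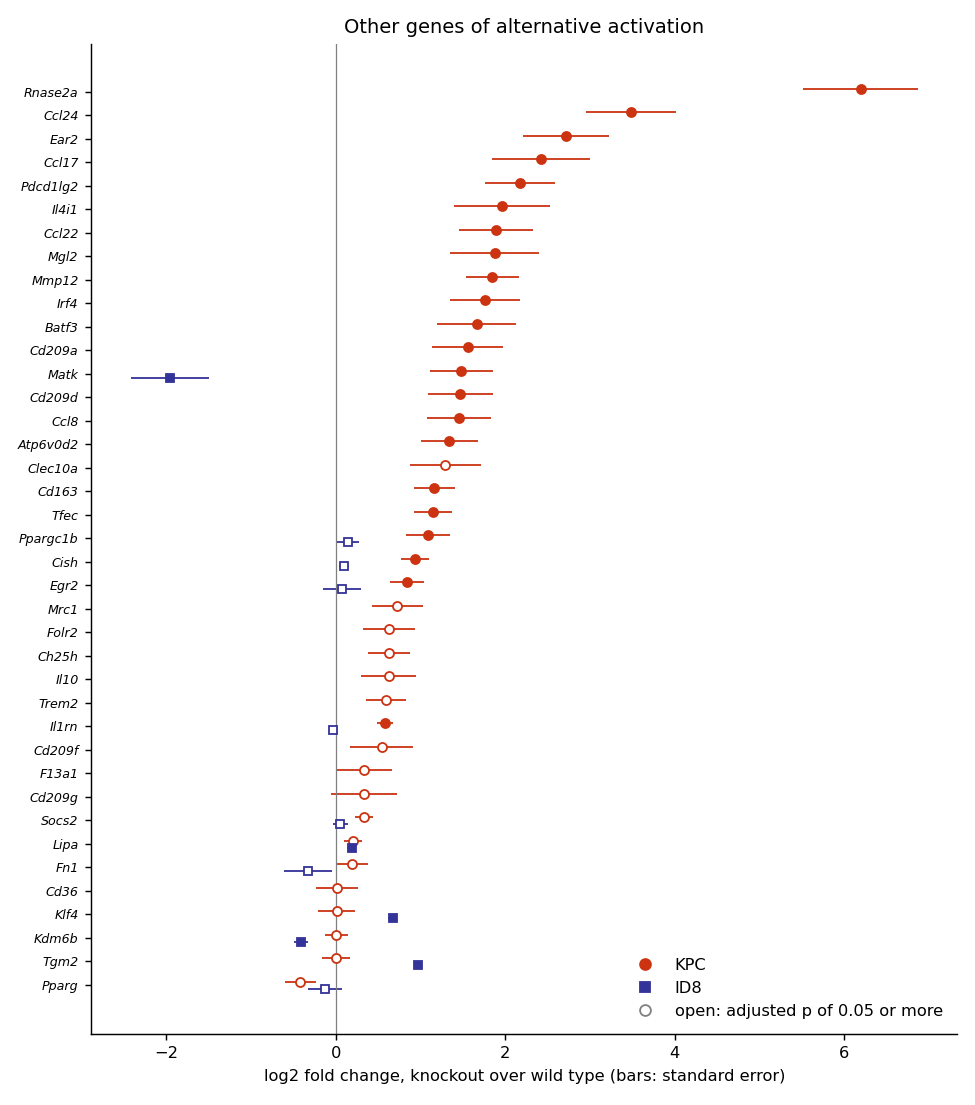
Log2 fold change, knockout over wild type, of the 39 listed other alternative activation genes in KPC (circles) and of the 12 tested in ID8 (squares), with standard errors, filled where the edgeR adjusted p is under 0.05. In KPC 38 of 39 values are positive, from Pparg at -0.42 to Rnase2a at 6.19, while the ID8 values lie on both sides of 0.

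In ID8, 12 of the 39 passed the filter, 3 rose and 2 fell, 25% against 25.4% of all genes called higher. Tgm2, a transglutaminase, rose (0.96, SE 0.0466, edgeR adjusted p = 6.78e-11), as did Klf4 (0.67, SE 0.0558) and Lipa (0.18). Kdm6b, a histone demethylase, fell by 0.41 (SE 0.0833) and Matk, a kinase, by 1.96 (SE 0.466) on the log2 scale. Matk was low there, at most 0.685 CPM in wild type. Tested as the difference between lines, 4 of these 12 genes passed, against 21.8% of 14921 genes (11.6% more positive in KPC, 10.3% more positive in ID8). That test pools the spread of both lines, though edgeR's common coefficient of variation was 25.1% in KPC and 5.08% in ID8. Its standard errors and p-values are therefore approximate for either line. Cish, a feedback inhibitor of cytokine receptors, had 0.87 (SE 0.234, edgeR adjusted p = 0.0159), Il1rn 0.63 (SE 0.139, adjusted p = 0.00466) and Matk 3.46 (SE 0.736, adjusted p = 0.0038), all more positive in KPC. Tgm2 was more positive in ID8 (-0.94, SE 0.237, adjusted p = 0.0111).

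Upstream, the cytokines of the pathway were scarce. Il4 was at 0 to 0.0545 CPM in wild-type and 0.0523 to 0.652 CPM in knockout KPC tumours, and Il13 at 0 to 0.103 and 0.105 to 0.999 CPM. Il4 had 2 counts in the 5 wild-type libraries together and 12, 9, 6, 3 and 1 in the knockouts, and Il13 had 3 counts and then 10, 11, 4, 18 and 2. Both were under the count filter. Without that filter edgeR called both higher over 18253 genes, with adjusted p-values of 0.0278 (Il4, log2 fold change 3.61) and 0.0256 (Il13, 3.69), fold changes that rest on these few counts. Of the 11 input genes tested in KPC, Csf2, the cytokine GM-CSF, rose (log2 fold change 1.57, SE 0.345, edgeR adjusted p = 0.0173), Tyk2, a Janus kinase, rose (0.37, SE 0.104, adjusted p = 0.0407), and none fell by edgeR or DESeq2, with 0 lower at an unadjusted p under 0.05. Il4ra, the shared receptor chain, had 0.46 (SE 0.179, adjusted p = 0.104) and Stat6 had 0.18 (SE 0.103, adjusted p = 0.252). The median of the 11 was 0.35. These 2 calls stand beside 6.67% of all KPC genes called higher. Single libraries decided this short count: removing any KPC library other than wild-type replicate 4 left 1 gene, and removing wild-type replicate 4 gave 4. Tyk2 kept its call in 8 of 18 alternatives, and lost it without any single library other than wild-type replicate 4.

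In ID8 the alarmin Il33, which induces type 2 cytokines, rose from 4.27 ± 0.276 CPM (log2 fold change 2.53, SE 0.0895, edgeR adjusted p = 1.48e-12), and Csf1 rose (0.59, SE 0.0504). Il2rg, the common receptor gamma chain, fell by 1.90 (SE 0.203) at a low level, from a mean of 3.66 to 0.973 CPM. Stat6 fell by 0.24 (SE 0.0465) and Il13ra1 by 0.21 (SE 0.0476). So 2 of 9 tested input genes rose and 3 fell, near the shares over all ID8 genes (25.4% higher, 25.5% lower). In KPC, Il33 had -0.13 (SE 0.131, adjusted p = 0.516).

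Genes of classical activation, the state linked to interferon gamma and bacterial products, were not lower. Of 17 tested in KPC, 4 rose and none fell by edgeR or DESeq2, with a median log2 fold change of 0.92 and all 17 positive. Over all KPC genes 6.67% were called higher and 7.01% lower. The 4 called are given next. They were the cytokine Tnf (1.00, SE 0.227, edgeR adjusted p = 0.0199), Nos2, the inducible nitric oxide synthase that competes with arginase 1 for arginine (1.70, SE 0.413, adjusted p = 0.0259), the transcription factor Irf5 (1.11, SE 0.299, adjusted p = 0.0368) and the costimulator Cd80 (0.92, SE 0.27, adjusted p = 0.0481). Nos2 had 1.81 to 6.30 CPM in wild type and 5.63 to 17.4 CPM in knockout, with overlap. With the muscle score as a covariate edgeR called 0 of the 17, with 5 at an unadjusted p under 0.05. Removing wild-type replicate 1, 2 or 5 or knockout replicate 1, 4 or 5 left 1 call, removing knockout replicate 3 left 2, and removing wild-type replicate 4 gave 7. Nos2 kept its call in 11 of 18 alternatives and Irf5 in 10. Both lost it with the muscle score and without wild-type replicate 1, 2 or 5 or knockout replicate 1, 4 or 5, Irf5 also without knockout replicate 3, and Tnf lost it with the muscle score (adjusted p = 0.0756). In ID8, where 25.4% of all genes were called higher, 5 of 6 tested rose, led by Cxcl10, an interferon-induced chemokine (3.30, SE 0.152), and Ptgs2, a cyclooxygenase (1.04, SE 0.0565), and Ccr7 fell by 0.30 (SE 0.0682).

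Of the arginine and polyamine genes around Arg1, 3 of 17 tested rose in KPC and none fell by edgeR, with a median of 0.05. Over all KPC genes 6.67% were called higher and 7.01% lower. DESeq2 called 2 lower, as many as were lower in edgeR at an unadjusted p under 0.05, and removing wild-type replicate 4 gave 6 calls in all. Slc7a2, a transporter of arginine, rose from 16.7, 21.2, 20.1, 31.0 and 15.7 CPM in wild type to 54.7, 82.7, 57.3, 135 and 59.1 CPM in knockout, with no overlap (log2 fold change 1.89, SE 0.288, edgeR adjusted p = 0.00444). In ID8 it fell by 0.65 (SE 0.0635, adjusted p = 3.34e-07). Sat1, a polyamine acetyltransferase, rose in KPC (0.35, SE 0.0671, adjusted p = 0.0104), as did Gatm, which starts creatine synthesis from arginine (1.19, SE 0.326, adjusted p = 0.0388). Gatm kept its call in 10 of 18 alternatives: it lost it with the replicate number as a block (adjusted p = 0.0612), with the muscle score (adjusted p = 0.226), and without wild-type replicate 1, 2 or 5 or knockout replicate 1, 3 or 4. Sat1 lost its call with the muscle score (adjusted p = 0.0684). Odc1, the enzyme that turns ornithine into putrescine, had 0.06 (SE 0.109) and the mitochondrial arginase Arg2 0.90 (SE 0.476, adjusted p = 0.213); both were named after their values were seen. In ID8, 3 of 16 tested rose and 8 fell, where 25.4% of all genes were called higher and 25.5% lower. Among the 8 was Asl, argininosuccinate lyase, by 0.46 (SE 0.0589), while the transporter Slc7a1 (0.27, SE 0.054) and Amd1 (0.27, SE 0.0586) were among those that rose.

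Among relatives of the 5 genes, the resistin family held the largest difference. Retnlg, the resistin-family gene next to Retnla, had 3.67, 0.871, 2.42, 8.47 and 2.68 CPM in wild type and 83.4, 40.1, 40.8, 85.0 and 28.1 CPM in knockout (log2 fold change 3.93, SE 0.561, edgeR adjusted p = 0.00395). It did not overlap between genotypes, while Retn, resistin itself, had -1.57 (SE 0.55, adjusted p = 0.0807). Around Chil3 and Chil4, the chitinase genes Chia1, Chil5 and Chil6 stayed under the count filter, at up to 0.333, 0.544 and 0.370 CPM in any KPC library. The neighbours of Arg1, Med23 (-0.06, SE 0.0956) and Akap7 (0.17, SE 0.0982), and Pelp1 beside Alox15 (-0.01, SE 0.0626), did not pass. Within 3 genes on either side, Dennd2d near Chil4 rose (0.46, SE 0.129, adjusted p = 0.0393), Enpp1 near Arg1 fell by 0.59 (SE 0.143, adjusted p = 0.0251) and Cip2a near Retnla fell by 0.29 (SE 0.0763, adjusted p = 0.0345). Retn, Chia1, Chil5, Chil6 and these neighbours were named for their position or family, outside the rule for named genes.

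Of the lipoxygenase relatives, Alox5, which starts leukotriene synthesis, rose in KPC (1.36, SE 0.332, edgeR adjusted p = 0.0266), a call kept in 11 of 18 alternatives and lost with the muscle score and without wild-type replicate 1, 2, 3 or 5 or knockout replicate 1 or 4. Its helper Alox5ap had 0.98 (SE 0.306, adjusted p = 0.0574) in KPC. In ID8, where it was low, it fell by 3.23 (SE 0.33), from 1.83 to 2.31 CPM in wild type to 0.103 to 0.358 CPM in knockout. In all, 2 of 8 relatives tested rose in KPC and none fell by edgeR, with 1 lower at an unadjusted p under 0.05 that DESeq2 called. Over all KPC genes edgeR called 6.67% higher. Removing wild-type replicate 1, 2, 3 or 5 or knockout replicate 1 or 4 left 1 call. In ID8 Chid1 rose by 0.21 (SE 0.0624) and Ctbs fell by 0.37 (SE 0.0816).

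Markers of other cells that can make these products also moved with genotype in KPC. Of 8 eosinophil markers, 4 were tested and 3 rose, where 6.67% of all KPC genes were called higher. Siglecf, also an alveolar macrophage gene, had 3.00, 3.65, 2.73, 2.94 and 2.02 CPM in wild type and 21.7, 10.8, 9.29, 29.0 and 6.12 CPM in knockout (log2 fold change 2.42, SE 0.408, edgeR adjusted p = 0.0070). Prg2 (3.79, SE 0.653) and the eotaxin receptor Ccr3 (3.58, SE 0.617) rose too, and all 3 showed no overlap. Eosinophil peroxidase (Epx) was at 0 to 0.155 CPM and Prg3 at 0 to 0.109 CPM across the 10 tumours. The summed markers without Il5ra covered 3.12 to 7.43 CPM in wild type and 15.0 to 64.9 CPM in knockout, and Il5ra itself, 136 to 204 CPM, had 0.11 (SE 0.133). With the muscle score Siglecf missed the threshold (adjusted p = 0.063). The part of these cells in the levels of Alox15 or the other genes was not tested.

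Of 9 neutrophil markers tested, Retnlg, Ly6g and Mmp9 rose and Ltf fell. Beside this and the next marker lists, 6.67% of all KPC genes were called higher and 7.01% lower. The sum of all 12 listed markers was 75.1 to 129 CPM in wild type and 153 to 291 CPM in knockout. It leaned on few genes: mean levels went from 55.2 to 106 CPM for Mmp9 and from 3.62 to 55.5 CPM for Retnlg. Ly6g went from 0.147 to 0.935 CPM and Ltf from 5.29 to 1.05 CPM. The marker S100a8 had 0.38 (SE 0.441, edgeR adjusted p = 0.574), with a negative value without knockout replicate 1. Of 10 epithelial markers 7 rose, among them Epcam (1.23, SE 0.168, adjusted p = 0.00266). The summed epithelial level was 5241 to 6666 CPM in wild type and 8542 to 10544 CPM in knockout. Of 7 monocyte markers 1, F10, rose (2.07, SE 0.412, adjusted p = 0.0136) and 5 were positive, with a summed level of 757 to 848 CPM in wild type and 711 to 889 CPM in knockout. Of 7 mast cell and basophil markers 1, the protease Mcpt4, rose (1.24, SE 0.255, adjusted p = 0.0154), with a median of 0.04 over the 7. Their sum was 57.1 to 102.6 CPM in wild type and 112 to 149 CPM in knockout. The part of neutrophils, monocytes, mast cells and epithelium in the results for Arg1, Chil4 and Retnla was not tested. Acta1, a muscle actin, had 173 to 7583 CPM in wild type and 2.12 to 1593 CPM in knockout (-1.96, SE 1.73, edgeR adjusted p = 0.457). Without the 4 libraries above 1000 CPM the log2 fold changes were 11.25 for Chil4, 4.93 for Retnla and 3.98 for Alox15. That setting did not even out muscle RNA between the genotypes. Acta1 was 822, 457 and 173 CPM in the wild-type replicates kept (1, 3 and 5). In the knockout replicates kept (1, 3 and 4) it was 12.4, 2.12 and 9.77 CPM (log2 fold change -5.88, edgeR adjusted p = 0.0154).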

How the data were processed

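RNA from 16 samples labelled as tumours was sequenced, and the authors deposited 4 tables, 1 per group, of estimated counts per gene symbol. Per the submitters' processing notes the tools were HISAT and RSEM 1.2.8 and the builds GRCm39 and mm39; the annotation release was not stated in the labels. Between 7.92% and 8.96% of the deposited values per table were not whole, and they were rounded for the tests. A gene absent from a table was taken as 0. Each line was fitted alone with edgeR 4.0.16 (TMM scaling, its default filter on low counts, robust quasi-likelihood test, Benjamini-Hochberg threshold 0.05) in R 4.3.3, and the difference between lines over all 16 libraries. CPM use each line's TMM-scaled library size. Standard errors are the absolute log2 fold change over the square root of F. Correlations used log2 CPM with a prior count of 2, over genes with a mean of at least 1.

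The 5 genes, the gene lists and the tests were chosen with earlier results of these data known. Genes named were the 5, Trp53bp1, up to 3 called genes per list and direction in KPC and 2 in ID8 by smallest p, the 3 most alike per gene, and markers; Alb, a liver marker, was at most 0.383 CPM in KPC. On simulated counts the KPC fit recovered 100% of 4-fold, 68.7% of 2-fold and 7.46% of 1.5-fold changes. The ID8 fit recovered 95.5% of 1.5-fold changes, and the test between lines 97% of 4-fold and 26.9% of 2-fold changes. The simulation gave every gene the same common spread and changed no gene of low level. These shares therefore do not hold for genes with a wider spread. The muscle gene Myh1, at a log2 fold change of -2.35 in KPC (SE 1.14, edgeR adjusted p = 0.186), was not called. Counts of calls are not compared between lines. Alternatives were other scaling (DESeq2 size factors), DESeq2 1.42.0, other filters, a replicate block, a joint fit, a muscle covariate and leaving out libraries.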

Additional observations from a re-analysis of the deposited data

Results flagged for a closer look

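In groups of 4 to 10 libraries, the end value was compared with its nearest neighbour by Dixon's ratio at the 95% level. Of 56 groups tested 5 stood out, where chance gives about 1 in 20 for independent groups of normally distributed values. CPM are skewed and the groups share libraries, so that share is only a rough guide. Chil4 had 8.83 CPM in KPC wild-type replicate 4, the next highest being 0.774 CPM. The same library stood apart for Alox15, with 7.02 CPM above the next at 3.88 CPM, and for the macrophage marker Adgre1, with 130 CPM above the next at 68.4 CPM. KPC wild-type replicate 2 had 7583 CPM of the muscle gene Acta1, the next being 1865 CPM. KPC knockout replicate 1 had 15.5 CPM of S100a8, the next being 5.94 CPM.

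For 4 genes of the wider programme, edgeR's test of the difference between lines passed. The test pools the spread of both lines, which was wider in KPC than in ID8. The effect in KPC minus that in ID8 was 0.87 on the log2 scale for Cish (SE 0.234, adjusted p = 0.0159), 0.63 for Il1rn (SE 0.139, adjusted p = 0.00466), 3.46 for Matk (SE 0.736, adjusted p = 0.0038) and -0.94 for Tgm2 (SE 0.237, adjusted p = 0.0111). Cish and Il1rn were higher in the KPC knockouts and did not pass in ID8. Matk was higher in the KPC knockouts and lower in the ID8 knockouts, where it had at most 0.685 CPM, and Tgm2 was higher in the ID8 knockouts.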

How the results depend on the processing

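The 5 genes kept a positive KPC log2 fold change in each of the 18 alternatives, with ranges of 3.95 to 4.59 (Chil3), 8.59 to 11.34 (Chil4), 1.39 to 1.83 (Arg1), 2.88 to 4.93 (Retnla) and 2.97 to 3.98 (Alox15). Between 4 and 5 of them were called, Retnla being the gene lost in 6 alternatives, and 0 were called in ID8 under any of 12. Trp53bp1 kept its direction and call throughout.

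The cause of the following moves was not tested. Of the called list genes in KPC, DESeq2 gave 4 for IL-4 and IL-13 input, 7 for arginine and polyamine genes and 4 for family relatives. The joint fit of the 4 groups gave 5, 7 and 4 for the same lists in KPC, and in ID8 gave 2 for IL-4 and IL-13 input, 3 for other alternative activation genes, 4 for arginine and polyamine genes and 1 for relatives. No filter on low counts gave 4 for IL-4 and IL-13 input, with Il4 and Il13 tested and called. With the muscle score as a covariate, KPC counts were 1 (IL-4 and IL-13 input), 4 (other alternative activation), 0 (classical), 1 (arginine and polyamine) and 1 (relatives), and S100a8 had a log2 fold change of -0.20. Leaving out the 4 KPC libraries with Acta1 above 1000 CPM, an alternative chosen after seeing the data, gave 5 for arginine and polyamine genes.

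Leaving out 1 KPC library at a time gave 1 to 4 calls for IL-4 and IL-13 input, 9 to 26 for other alternative activation, 1 to 7 for classical activation, 2 to 6 for arginine and polyamine genes and 1 to 3 for relatives, and S100a8 ran from -0.18 to 0.63. Each of these counts was at its highest without wild-type replicate 4, for relatives also without knockout replicate 2. Of 16 named KPC genes called, 8 were called in every alternative run, and of 19 in ID8, 10 were.

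Whether the replicate numbers pair the samples was not settled. Same-numbered KPC libraries had correlations of -0.154, 0.545, 0.181, 0.334 and -0.534, and 1 of 5 numbers matched itself best. In ID8 the correlations were -0.139, 0.186 and -0.111. Such correlations over all genes cannot exclude pairing. A replicate block took the KPC SE from 0.37 to 0.287 (Chil3), 1.49 to 0.979 (Chil4) and 0.254 to 0.0842 (Arg1). For Retnla it went from 0.763 to 0.723 and for Alox15 from 0.379 to 0.152. With the number as a replicate block, 4 IL-4 and IL-13 input genes were called in KPC in place of 2, and 19 other alternative activation genes in place of 22. Among named genes it ended the KPC call of Gatm and added those of Csf1r and C1qa. Depth limits Il4, Il13 and the 4 genes with 0 or 1 count in all of ID8.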
